A study of Mus musculus with 17 samples.

Results

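The footprint to mRNA ratio, or translational efficiency, of wild-type mouse testis was measured from 4 of the 17 libraries of the series. They are 2 libraries of ribosome footprints and 2 of mRNA, each with a replicate a and a replicate b. The members were all annotated transcripts with a coding size, which are 18286 of the 37991 transcript rows. The other 19705 rows carried no coding size and were set aside.

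All 4 libraries came from whole testis of the 129SvJae strain with a wild-type genotype and no antibody. Footprint libraries held RNA of 26 to 34 nt left after nuclease digestion of clarified lysate and a sucrose cushion, and were made with a strand-specific protocol. The mRNA libraries held RNA from clarified lysate, fragmented to 120 to 200 bp and ligated without strand information. Matching libraries of Mael-/- testis, of the same strain, are used in several places below for comparison, and the labels give no age for any animal.

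Each ribosome on an mRNA shields a short stretch from nuclease, so counting footprints over a coding sequence measures how many ribosomes sit on it. Dividing by the mRNA count gives a relative measure of ribosomes per message, which reflects initiation and, to a lesser degree, the speed of elongation. In the testis this layer of control is prominent, because many messages of meiotic cells and round spermatids are stored without ribosomes until transcription has ceased in elongating spermatids.

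Counts over the coding transcripts summed to 5009051 and 3291588 in the footprint libraries a and b, and to 15372210 and 6732376 in the mRNA libraries a and b. Of the 18286 transcripts, 3016 had no count in any of the 4 libraries and 10995 (60.1%) had enough counts for the test. The deposited size of a coding transcript was read as codons less 20, since whole size equalled 3 times this number plus 60 nt in 2023 transcripts, and sizes are given below as full coding nucleotides. The median coding size was 975 nt, and each class of size or level below includes its lower and not its upper bound. The transcript identifiers matched 0 entries of the gene tables used, so no transcript is given a gene name and the tissue could not be checked against marker genes. Separate animals are not stated for the replicates, and the error behind each p-value is the spread between these libraries, which may be technical.

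Footprint counts were gathered on fewer transcripts than mRNA counts were. Sorted by counts, the leading transcripts that together held 50% of footprint counts numbered 413 in replicate a and 414 in replicate b, whereas 598 and 594 transcripts held 50% of mRNA counts. The 100 leading transcripts of each library held 33.1% of footprints in both replicates, against 21.2% and 22.3% of mRNA counts. The leading 10 held 9.41% and 9.23% of footprints, against 5.41% and 5.27% of mRNA counts. In each of these measures the footprint libraries stood apart from the mRNA libraries without overlap. Groups of transcripts with nearly the same counts, described below, held 19.3% and 19.2% of footprint counts, against 9.60% and 10.4% of mRNA counts. The measures were not repeated with each group counted once.

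A majority of the tested transcripts differed between the assays. With edgeR's quasi-likelihood test and Benjamini-Hochberg adjustment at 0.05, 3146 transcripts (28.6% of those tested) had a higher ratio and 3337 (30.4%) had a lower ratio than the scaled average, which makes 6483 (59%) in all. Calls beyond 4-fold were made for 765 transcripts on the higher side (6.96%) and 1192 on the lower side (10.8%). The 2 footprint libraries lay wholly above or wholly below the 2 mRNA libraries in 8930 tested transcripts (81.2%). The ratio is relative to the average message, so these counts say nothing of the total rate of translation. Without footprint replicate a the higher calls numbered 2092, less by over 1.5 times than with both replicates.

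The span of the ratio among transcripts was wide compared with its error. For the description, CPM, which are counts scaled to an equal total over coding transcripts, were averaged over the replicates, and the log2 ratio was taken after adding 0.5 CPM to each side. Over the 9144 transcripts that averaged 5 CPM or more in the 4 libraries, the log2 ratio had a median of -0.07 and an interquartile range of -1.005 to 0.80. Its 5th and 95th percentiles were -2.68 and 2.07, a distance of 4.75 on the log2 scale or 26.8-fold. In single replicates this distance was 4.98 in a and 4.75 in b. The low side carried the longer tail, with 897 transcripts below -2 and 508 above 2.

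A threshold that uses footprints lets in weak messages only when they are rich in ribosomes. The distribution was therefore also taken over the 7541 transcripts with an mRNA mean of at least 10 CPM, a choice that does not look at footprints. There the median log2 ratio was -0.29 and the 5th and 95th percentiles were -2.80 and 1.69. The lower tail was almost the same in number, with 885 transcripts (11.7%) below -2, and the upper tail was cut to 233 (3.09%) above 2. The mRNA count is the denominator, so this choice leaves out scarce messages, also those rich in ribosomes. The lower median and the thinner upper tail follow in part from the choice. These 7541 transcripts are the set used below for coding size and abundance.

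**Figure D1:**
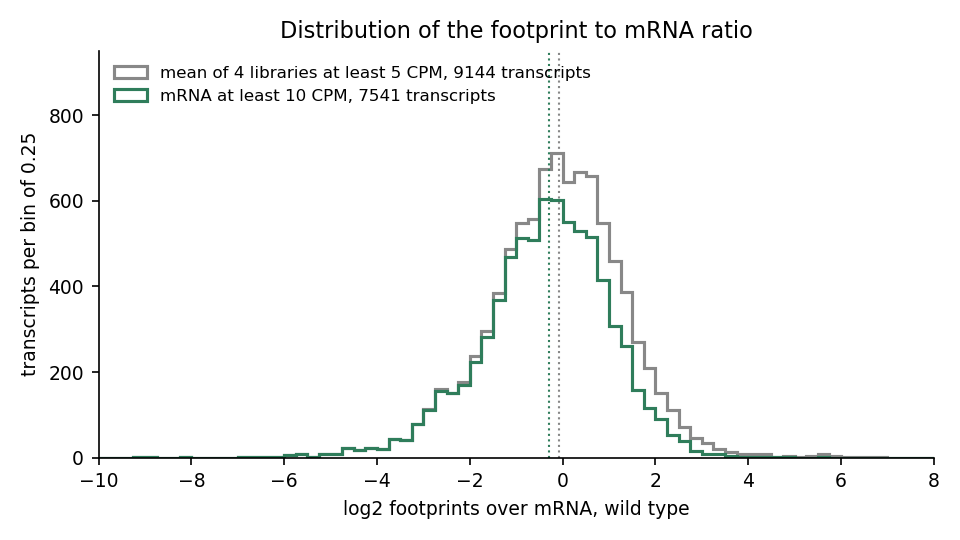
Distribution of the log2 footprint to mRNA ratio in wild-type testis, with the number of transcripts per bin on the vertical axis, for the 9144 transcripts averaging 5 CPM or more over the 4 libraries (grey) and the 7541 with an mRNA mean of at least 10 CPM (green). Dotted lines mark the medians of -0.07 and -0.29. The lower tails nearly coincide and the upper tail is thinner in the second set.

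The replicates gave close values. The log2 ratio in replicate a and that in replicate b had a Pearson r of 0.942 and a Spearman rho of 0.935 over the 9144 transcripts, with the same sign in 89.6%. The SD of a single replicate's ratio, taken from the difference between a and b, was 0.36, against an SD of 1.48 among transcripts. The difference between replicates accounted for 5.80% of the variance. These values pair footprints and mRNA by letter, a pairing that the labels do not state. With the letters crossed, Pearson r was 0.884, so the error given here is that of same-letter pairs. Each r describes transcripts that share protocols and libraries and carries no p.

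Precision rose with counts. At a mean of 5 to 10 CPM the replicate SD was 0.49 and 45.4% of the 1340 transcripts were called in either direction. At 200 CPM and over the replicate SD was 0.28 and 77.1% of the 1033 transcripts were called. The spread among transcripts was 1.46 in the weakest of these classes and 1.60 in the strongest, so it did not shrink with depth as the error did.

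**Figure D2:**
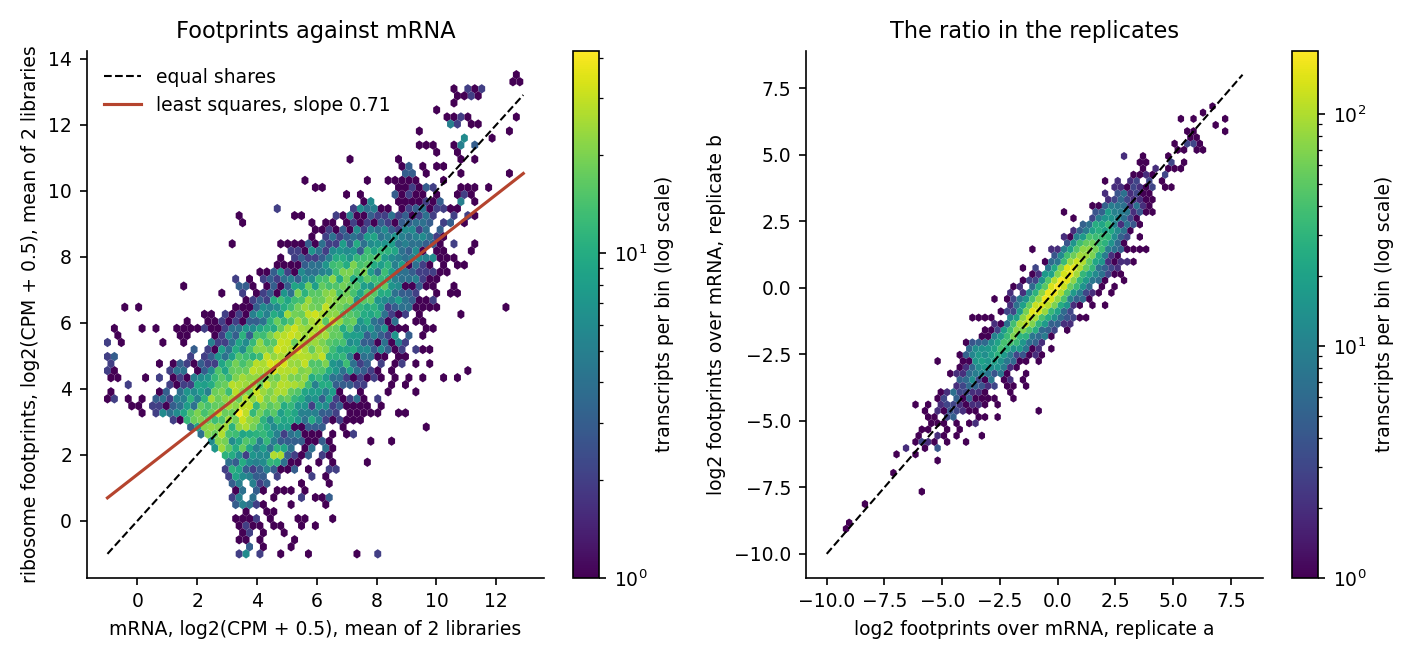
Left, ribosome footprints against mRNA, both as log2(CPM + 0.5) averaged over 2 libraries, for 9144 transcripts of wild-type testis, with the line of equal shares dashed and the least-squares line (slope 0.71) in red. Right, the log2 ratio of replicate b against that of replicate a, where the transcripts gather along the dashed diagonal (Pearson r 0.942). Colour gives the number of transcripts per bin on a log scale.

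Messages with many copies generally had many ribosomes, but the mRNA level left about as much unexplained as it described. Over the 9144 transcripts, log2 footprints and log2 mRNA had a Pearson r of 0.714, or 50.9% of shared variance. The least-squares slope was 0.71, with 0.72 in replicate a and 0.69 in replicate b, and the reduced major axis slope was 0.99. Footprints therefore did not scale with mRNA in one fixed way that all slopes share: with the mRNA threshold the least-squares slope was 0.83, and with a threshold of 10 CPM on footprints it was 0.60.

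The extremes of the ratio held very different shares of the assays. The 755 transcripts with the lowest ratios, a 10% slice of the 7541, received 1.70% of footprint counts and 14.3% of mRNA counts. The 754 with the highest ratios received 32.2% of footprint counts and 9.11% of mRNA counts. These slices were chosen by the ratio itself, so the shares are a description. Median coding size was 948 nt in the top slice and 1128 nt in the bottom slice, and between 1106 and 1463 nt in the 8 slices between them. Transcript models with an untranslated part under 5 nt made up 8.89% of the top slice and 9.27% of the bottom slice, against 1.72% to 4.11% of the others. Both extremes were thus richer in models without annotated untranslated regions than the middle was.

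Short coding sequences took a larger share of footprints than of mRNA. Transcripts with a coding size of 300 to 600 nt held 36.3% and 35.6% of footprint counts, against 20.3% and 21.4% of mRNA counts, in replicates a and b. The means were 35.9% ± 0.46 and 20.8% ± 0.80 (SD, n = 2 each). Transcripts of 1200 to 2400 nt showed the reverse, with 26.0% ± 0.25 of footprint counts and 33.0% ± 0.98 of mRNA counts. Those of 2400 to 4800 nt held 11.2% ± 0.083 of footprint counts and 16.5% ± 0.050 of mRNA counts. Those of 4800 nt and over held 4.32% ± 0.18 of footprint counts and 6.89% ± 0.69 of mRNA counts. As a ratio of shares, footprints over mRNA, the classes stood at 1.44 under 300 nt, 1.73 at 300 to 600 nt, 0.97 at 600 to 1200 nt, 0.79 at 1200 to 2400 nt, 0.68 at 2400 to 4800 nt and 0.63 at 4800 nt and over.

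Some transcripts, both short and long, belonged to families with nearly the same counts. Among the 3741 transcripts of at least 50 CPM, 240 fell into 93 groups whose counts lay within 10% of a group mate in every library and whose coding sizes lay within 30 nt. They held 19.3% and 19.2% of footprint counts, against 9.60% and 10.4% of mRNA counts. The sources used here do not say how reads that match several transcripts were counted, which leaves the value of each such transcript uncertain. Counting each group once left out 147 transcripts, among them 63 at 300 to 600 nt, 47 at 600 to 1200 nt and 29 at 1200 to 2400 nt. The class of 300 to 600 nt then held 27.6% ± 0.54 of footprint counts and 16.0% ± 0.41 of mRNA counts. In this class the share of footprints was 1.73 times that of mRNA with all transcripts and 1.73 times with each group counted once. The ratios of the other classes rose. They were then 1.53 under 300 nt, 1.01 at 600 to 1200 nt, 0.85 at 1200 to 2400 nt, 0.73 at 2400 to 4800 nt and 0.67 at 4800 nt and over. The class of 300 to 600 nt thus stood less far above the longer classes.

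**Figure D3:**
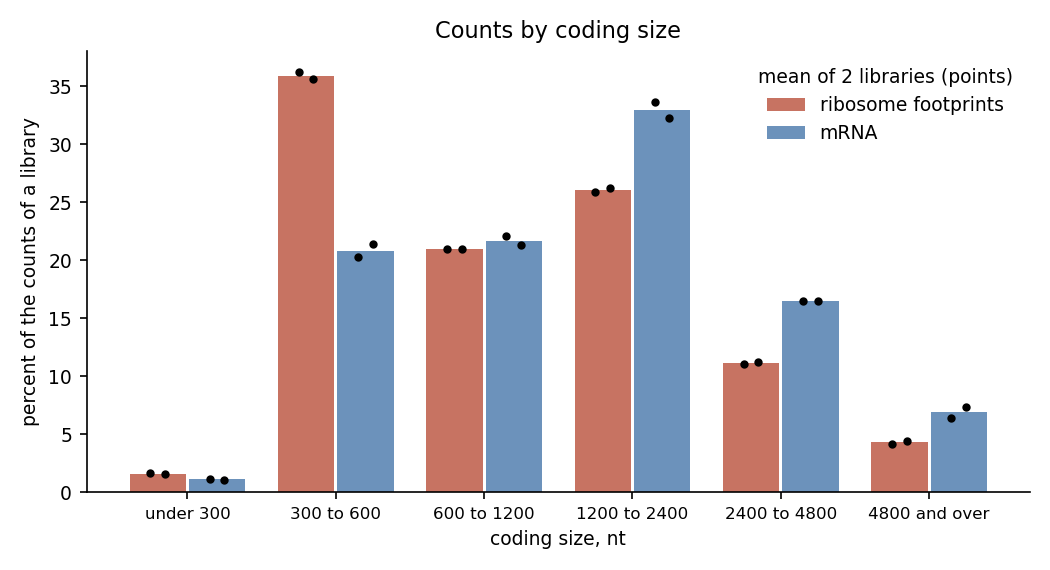
Percent of the counts of a library that fell on coding transcripts of each size class, with ribosome footprints left of mRNA. Bars are means of 2 wild-type libraries and points are the libraries. In the class of 300 to 600 nt both footprint libraries lie above 35%, and both mRNA libraries lie near 21%.

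Single transcripts had a weaker relation to size than those shares. Over the 9144 transcripts the Spearman rho of the log2 ratio with coding size was -0.139, with -0.119 in replicate a and -0.147 in replicate b. Over the 7541 chosen by mRNA it was -0.081. The median log2 ratio was 0.23 in the 185 transcripts under 300 nt and -0.0018 in the 1178 of 300 to 600 nt. In every class from 600 nt upward it lay between -0.32 and -0.37. The class medians of replicate a and replicate b differed by at most 0.14, so the drop between short classes and those from 600 nt was larger than the replicate difference.

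Calls on the higher side thinned out with size. Of the 7541 transcripts, 25.7% had a higher and 38.4% a lower ratio by the test, beside 28.6% and 30.4% of all transcripts tested. Higher ratios were called in 43.2%, 37.2%, 26.6%, 22.7%, 18.3% and 16.9% of the size classes in order of length. Lower ratios were called in 28.6% and 32.6% of the 2 shortest classes. In the other 4 they were called in 38.2% to 40.9%, close to the share over the 7541. The spread narrowed with size as well. The interquartile range was 1.96 on the log2 scale in the shortest class and 1.42 in both classes from 2400 nt upward. Fragments of the mRNA libraries were longer than footprints in every sample, so a dependence of either protocol on message length cannot be told apart from a dependence of translation on it.

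Abundance had a relation of similar or larger size. With the mRNA level expressed as CPM per kb of coding sequence, the Spearman rho of the log2 ratio with the level was -0.306 over the 9144 transcripts, with -0.296 in replicate a and -0.321 in replicate b. The mRNA count is also the denominator of the ratio, so an error in it lowers the ratio as it raises the level. With the level from mRNA replicate b and the ratio from mRNA replicate a, rho was -0.320, and the other way round it was -0.254. The value moved more with the choice of transcripts, to -0.150 over the 7541 chosen by mRNA and to -0.409 over the 7418 with a footprint mean of at least 10 CPM. The relation was thus negative under each threshold, and its size was set in good part by the threshold.

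In the set chosen by mRNA, the median log2 ratio was -0.22 in the 113 transcripts at 1 to 4 CPM per kb, -0.04 at 4 to 16 and -0.23 at 16 to 64. It was -0.56 at 64 to 256 and -0.54 at 256 and over. Lower ratios were called in 24.8% of the transcripts at 1 to 4 CPM per kb, in 22.6% of those at 4 to 16 and in 51.9% of those at 256 and over, beside 38.4% of the set. Higher ratios were called in 17.7%, 26.9% and 25.3% of the same classes, beside 25.7% of the set. The interquartile range was 1.48 at 1 to 4 CPM per kb and then 1.40, 1.67, 1.91 and 1.96 in the classes of rising level, while the replicate SD was 0.47, 0.41, 0.36, 0.27 and 0.24. From 4 CPM per kb upward, abundant messages differed more from each other in the ratio than scarce ones did, although they were measured with less error. The classes also differed in coding size, with medians of 2010 nt at 4 to 16 CPM per kb and 640.5 nt at 256 and over. The spread was not taken by level within size classes, so level and size cannot be told apart here.

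**Figure D4:**
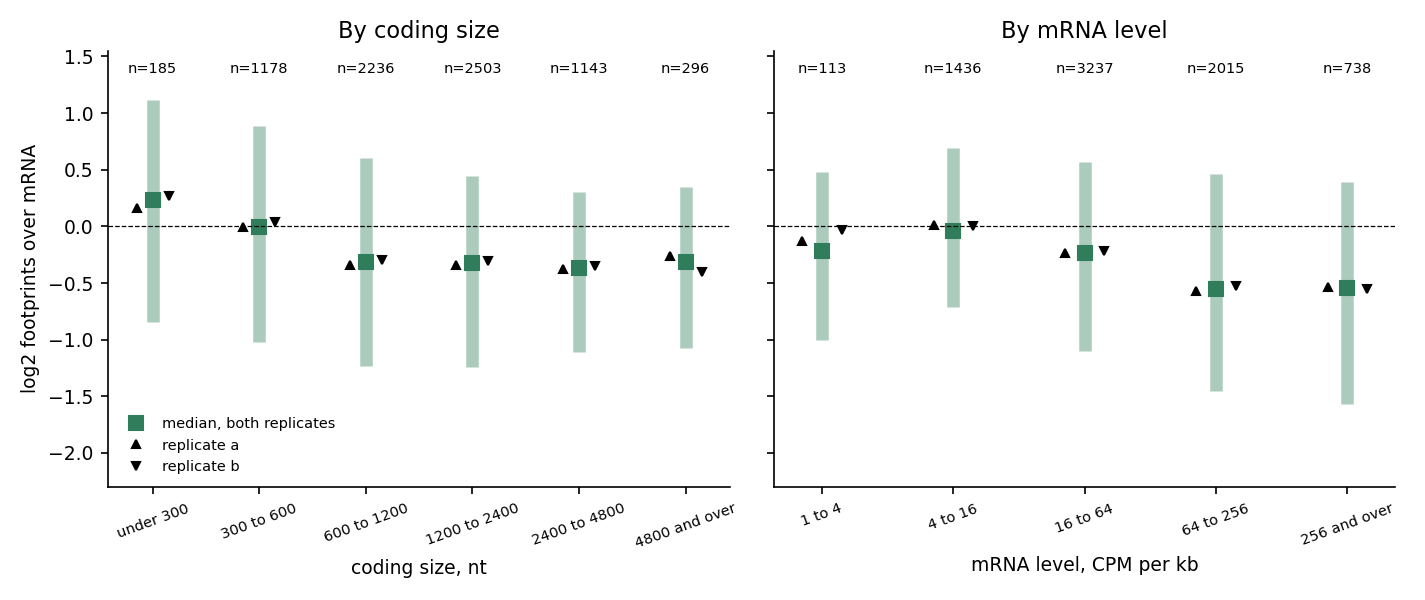
Median log2 footprint to mRNA ratio in wild-type testis by coding size (left) and by mRNA level (right), over the 7541 transcripts with an mRNA mean of at least 10 CPM. Squares are medians over both replicates, bars the interquartile range over transcripts, and triangles the medians of replicates a and b. The 2 transcripts under 1 CPM per kb are not drawn. Medians fall below -0.3 from 600 nt upward and near -0.55 from 64 CPM per kb upward.

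Size and abundance were jointly related to the ratio, and the class medians were lowest for messages both long and abundant. Among single transcripts, 17.0% of the 755 with the lowest ratios had coding sizes under 600 nt, against 14.1% to 30.6% in the other slices of the ratio. Low ratios were thus not confined to long messages. At 256 CPM per kb and over, the median log2 ratio was 0.07 under 300 nt (48 transcripts) and 0.10 at 300 to 600 nt (301 transcripts). It was -0.81 at 600 to 1200 nt (208 transcripts), -1.38 at 1200 to 2400 nt (151 transcripts) and -1.58 at 2400 to 4800 nt (23 transcripts). The 7 transcripts of 4800 nt and over had a median of -1.72. Lower ratios were called in 31.9% of this abundance class at 300 to 600 nt, in 79.5% at 1200 to 2400 nt and in all 7 of the longest, beside 38.4% of the 7541 transcripts.

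The next abundance class behaved in the same way with a smaller span. At 64 to 256 CPM per kb the median was 0.26 under 300 nt, -0.05 at 300 to 600 nt, -0.44 at 600 to 1200 nt, -0.88 at 1200 to 2400 nt and -1.28 in the 27 transcripts of 4800 nt and over. Of those 27 transcripts, 25 had a lower ratio by the test. Of all coding transcripts of 64 CPM per kb and over, 2753 were in the set and 1 was not, so the threshold left the gradient there untouched. The medians of replicates a and b in these cells differed by at most 0.21.

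Among less abundant messages the gradient with size depended on which transcripts were let in. In the set chosen by mRNA, the Spearman rho of the log2 ratio with coding size was -0.461 within 256 CPM per kb and over and -0.262 within 64 to 256. It was -0.060 within 16 to 64 and -0.043 within 4 to 16, a class that holds no transcript under 600 nt because of the threshold. Over the 9144 transcripts the values at the upper levels were -0.461 and -0.262 again, whereas those at 16 to 64 and at 4 to 16 were -0.112 and -0.346. Read the other way, the rho with mRNA level over the 7541 was -0.135 under 300 nt, 0.020 within 300 to 600 nt, -0.296 within 1200 to 2400 nt and -0.304 within 2400 to 4800 nt. Within 300 to 600 nt its sign differed between the replicates, with 0.056 in a and -0.032 in b, and over the 9144 transcripts it was -0.303. Over all 7541 transcripts the partial rho with size given level was -0.173 and that with level given size was -0.213, both farther from 0 than the simple values. The rho of size with level was -0.467, which the threshold in CPM and the division by length both bear on, and it was -0.143 with a threshold of 5 CPM per kb on the mean density.

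Counting each near-identical group once left the gradient in place. At 256 CPM per kb and over the medians were then -0.01 at 300 to 600 nt, -0.81 at 600 to 1200 nt and -1.38 at 1200 to 2400 nt. Levels per kb of the counted window, which leaves out 20 codons, gave 0.08, -0.75 and -1.41 in the same classes.

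**Figure D5:**
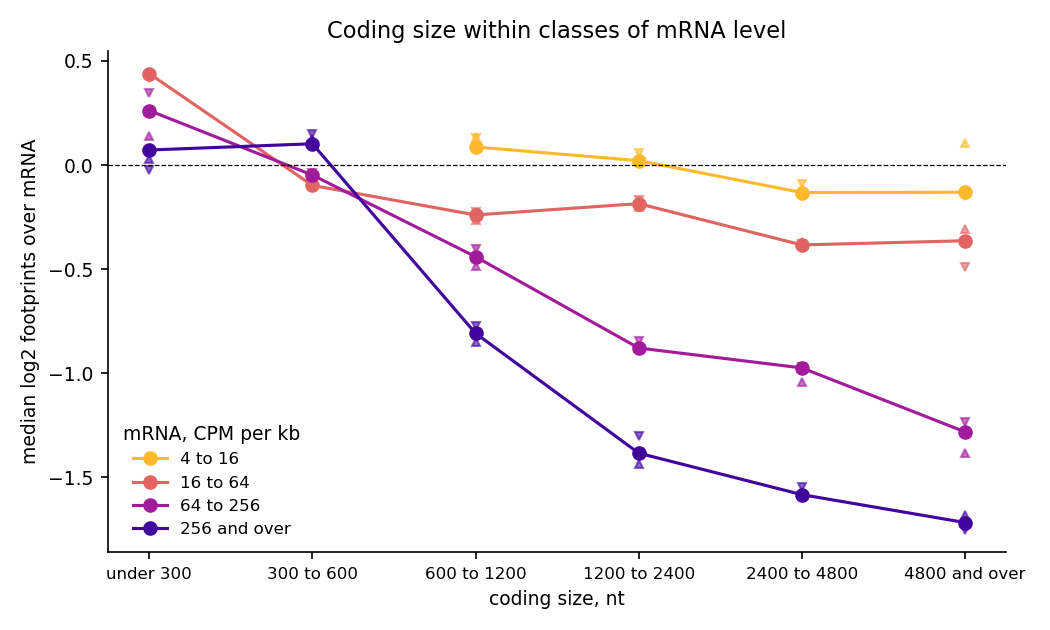
Median log2 footprint to mRNA ratio in wild-type testis against coding size, with a line for each class of mRNA level, over transcripts with an mRNA mean of at least 10 CPM. Circles are medians over both replicates and triangles those of replicates a and b, and cells with under 5 transcripts are not drawn. The line for 256 CPM per kb and over drops to -1.72 in the longest class, and that for 4 to 16 CPM per kb stays between 0.09 and -0.13.

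The untranslated part of the annotated transcript had little relation to the ratio. The Spearman rho of the log2 ratio with its length, taken as whole size less coding size, was 0.0050 over the 9144 transcripts and 0.014 over the 7541. Given coding size, the partial values were 0.039 and 0.034. Class medians over the 7541 transcripts ran between -0.09 for models with under 5 nt of untranslated sequence and -0.38 for those with 500 to 1000 nt, with no steady order by length.

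The transcripts with the most footprints were short messages well supplied with ribosomes. All 10 of the leading transcripts by footprint counts had a higher ratio by the test, beside 28.6% of all transcripts tested. Of the 10, 8 had coding sizes of 381 to 417 nt. The first, with 384 coding nt, had 12181 and 11277 CPM of footprints in replicates a and b, against 6167 and 6926 CPM of mRNA. Its log2 ratio by edgeR was 0.88 ± 0.13 (SE), with an adjusted p of 0.00148. Those ranked 4 and 5 had 9318 and 9317 CPM of footprints and 2836 CPM of mRNA each, so their reads may be shared. All those ranked 4 to 10 had 381 to 417 coding nt and 8138 to 9318 CPM of footprints. Those ranked 2 and 3 both had 1353 coding nt. The 10 may therefore stand for fewer separate messages. A rank by footprints favours a high ratio, so the direction here is a description.

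The most abundant mRNAs divided almost evenly. Of the 100 leading transcripts by mRNA, 43 had a higher and 48 a lower ratio by the test. Of the 100 leading by footprints, 81 had a higher and 7 a lower ratio, and 59 transcripts stood in both lists. Among all transcripts tested these shares were 28.6% and 30.4%, and calls of either kind were more frequent at high counts. Near-identical transcripts were counted separately in both lists, so each list may stand for fewer separate messages. A rank by mRNA, the denominator, favours a low ratio. Those of the 10 leading mRNAs that fell farthest short of ribosomes were long. The transcript ranked 7, with 4008 coding nt, had 79.9 and 99.95 CPM of footprints, against 4953 and 4754 CPM of mRNA. Its log2 ratio was -5.72 ± 0.17 (SE), with an edgeR adjusted p of 1.41e-05. The transcript ranked 5, with 2577 coding nt, had 1538 and 1477 CPM of footprints, against 5722 and 5136 CPM of mRNA, and a log2 ratio of -1.81 ± 0.13 (SE; edgeR adjusted p 7.03e-05). These transcripts were picked out after their values were seen.

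The largest changes by the test were transcripts counted in only the one assay. In the described set, 15 transcripts had 0 footprint counts in both libraries with 232 to 6199 summed mRNA counts. Another 7 had 0 mRNA counts with 112 to 380 summed footprint counts. Of the 15, 14 also had 0 footprint counts in both Mael-/- libraries, and of the 7, 3 had 0 mRNA counts there and none had more than 2. The 15 held 12 distinct rows of counts. Most absences of footprints thus recurred in libraries that played no part in the choice. Those libraries share the protocols and the reference, so a message without reads cannot be told apart from a row that cannot be counted.

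On the higher side, ENSMUST00000071120, with 393 coding nt, had 261 and 119 footprint counts against 0 and 0 mRNA counts. With the floor of 3 counts over the 2 mRNA libraries its ratio was at least 337-fold higher than equal shares of the assays would give. ENSMUST00000071737, with 171 coding nt, had 148 and 93 footprint counts against 0 and 0 mRNA counts, at least 214-fold higher. Its whole annotated size was also 171 nt, within the range of the mRNA fragments, 120 to 200 bp. Whether this bears on its 0 mRNA counts was not tested, so the ratio need not reflect ribosome load. On the lower side, ENSMUST00000079755, with 465 coding nt, had 0 and 0 footprint counts against 4405 and 1794 mRNA counts, at least 776-fold lower. ENSMUST00000079663, with 402 coding nt, had 0 and 0 footprint counts against 3989 and 1625 mRNA counts, at least 703-fold lower. The edgeR adjusted p-values were 7.17e-05, 6.85e-05, 2.07e-05 and 2.09e-05 in this order. The 2 lower-side transcripts had similar mRNA counts in every mRNA library. In Mael-/- replicates a and b ENSMUST00000079755 had 1771 and 1104 and ENSMUST00000079663 had 1633 and 996. Their reads may be shared, so they may not be separate cases. Except for ENSMUST00000079755, the named models have no annotated untranslated part. The mRNA libraries carry no strand. For the lower-side transcripts, mRNA reads of a gene on the opposite strand therefore cannot be told apart from their own.

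In Mael-/- testis, which lacks a protein of the piRNA pathway, most of the ranking of messages by ratio was shared with wild type. The Mael transcript itself was not examined, as no identifier was paired with a gene. Over the 9429 transcripts averaging 5 CPM or more in the 8 libraries, the log2 ratios of the genotypes had a Pearson r of 0.921. The distance between the 5th and 95th percentiles was 4.31 and 3.99 in Mael-/- replicates a and b, against 4.89 and 4.67 in wild type. The rho of the ratio with mRNA level was -0.113 and 0.072 in Mael-/-, against -0.322 and -0.337 in wild type. Neither measure overlapped between genotypes. However, an exact two-sided permutation test over 2 same-letter pairs of libraries per genotype gave p = 0.333, the smallest it can give (0.444 after Benjamini-Hochberg adjustment over 4 measures). Each pair is a footprint and an mRNA library, a pairing that the labels do not state. The rho with coding size was -0.130 and -0.340 in Mael-/-, against -0.127 and -0.152 in wild type (exact permutation p = 0.667), and Mael-/- replicate b stood apart from the other 3 values.

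At the highest mRNA level, messages of 600 to 4800 coding nt had medians closer to 0 in both Mael-/- replicates than in wild type, and the class of 4800 nt and over, with 1 transcript in Mael-/-, did not. Within 256 CPM per kb and over, by each genotype's own mRNA, the median log2 ratio at 1200 to 2400 nt was -0.50 and -0.30 in Mael-/- (81 transcripts), against -1.44 and -1.30 in wild type (151 transcripts). At 600 to 1200 nt it was -0.33 and -0.09 in Mael-/-, against -0.85 and -0.77 in wild type. At 2400 to 4800 nt it was -1.38 and -1.26 in Mael-/- (9 transcripts), against -1.58 and -1.55 in wild type (23 transcripts). At 4800 nt and over it was -1.90 and -2.12 in Mael-/- (1 transcript), against -1.68 and -1.75 in wild type (7 transcripts). At 300 to 600 nt it was 0.11 and 0.39 in Mael-/-, against 0.12 and 0.15 in wild type. At 64 to 256 CPM per kb the medians at 4800 nt and over were -0.79 and -1.28 in Mael-/- (34 transcripts), against -1.38 and -1.23 in wild type (27 transcripts), which overlap. The rho with coding size at 256 CPM per kb and over was -0.244 and -0.330 in Mael-/-, against -0.477 and -0.439 in wild type, negative in every same-letter pair. These class values were not tested between genotypes. The classes do not hold the same transcripts, and in whole testis fewer cells of a type and less RNA per cell cannot be told apart.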

How the data were processed

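The authors deposited raw counts per transcript for each library, with a size column and no header. Per the submitters' processing notes, CASAVA 1.8, Bowtie2 2.0.6, TopHat2 2.0.7 and the mouse build mm9 were used. The counting tool and the treatment of reads with several matches are not given in the sources used here. Rows with a coding size were kept, and coding nt were taken as 3 times the size column plus 20 codons, a reading made from the tables' whole sizes. Transcripts passing edgeR's filterByExpr were tested between assays with edgeR 4.0.16 (TMM scaling, glmQLFit, glmQLFTest, assay as the sole term, R 4.3.3) with Benjamini-Hochberg adjustment, and DESeq2 1.42.0 served as an alternative. On simulated counts the test kept false calls near the nominal rate where dispersion followed the mean, and exceeded it where dispersion also varied between transcripts. Descriptive ratios used CPM with a pseudocount of 0.5, a mean of at least 5 CPM over the 4 libraries or an mRNA mean of at least 10 CPM, and Python 3.11.15 with scipy 1.17.1. Spearman and Pearson values across transcripts carry no p, as transcripts of one library are not independent. Floors of 3 counts cover counting error only. The named transcripts were the 2 with the largest change in each direction, called, at 5 CPM or more and without overlap between assays. The members, classes and lists were chosen with earlier results of these data known. Gene lists written for the testis were not used, since 0 identifiers matched a gene.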

Additional observations from a re-analysis of the deposited data

How the results depend on the processing

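Calls were 3146 higher and 3337 lower. They ranged over 2092 to 2914 higher and 2419 to 3380 lower when a library was left out in turn, the lowest without footprint replicate a, which leaves 1 footprint library whose spread is assumed to be that of the mRNA libraries. DESeq2's test gave 2616 and 3026, and a replicate block gave 3545 and 3724. The replicate deviations of the assays had a Pearson r of 0.365, but the labels state no pairing and there are only 2 letters. In none of these settings was a transcript called in the opposite direction. The 4 named transcripts kept their direction and call under the block and with each library left out. The Spearman coefficient with coding size, -0.139, was -0.166 with a mean of at least 20 CPM, -0.081 with the threshold on mRNA, -0.222 with that on footprints and -0.280 in the Mael-/- libraries. The Spearman coefficient with mRNA level, -0.306, was -0.267 at 1 CPM, -0.150 and -0.409 with the mRNA and footprint thresholds, -0.254 with the level from mRNA a and the ratio from mRNA b, and -0.043 in the Mael-/- libraries. The r between replicates was 0.912 at 1 CPM, 0.956 at 20 CPM, 0.938 with a pseudocount of 0.1 CPM and 0.884 with letters crossed. The slope was 0.80 at 1 CPM, 0.59 at 20 CPM, 0.83 and 0.60 with the mRNA and footprint thresholds, and 0.69 to 0.71 with a library left out. The width was 4.49 and 4.29 with these thresholds and 4.57 to 5.03 with a library left out. The causes of these shifts were not tested. The mRNA and footprint thresholds, near-identical groups and the level per counted window were chosen after seeing the data. Gene lists under another scaling were not run.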
